A study of Mus musculus with 26 samples.

Results

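The ER tumours are 3 mammary tumours of the second experimental batch whose titles carry the letters ER, which the labels do not spell out. They were chosen by that title and give 6 of the 26 libraries of the series, from 3 of its 13 tumours. Each tumour grew from PyMT cells, a mouse mammary tumour line, placed in the mammary gland of a female FVB mouse aged 5 to 7 weeks. The tumours weighed 615 mg (ER1), 653 mg (ER2) and 467 mg (ER3). The labels give no drug or genotype that divides the tumours, and each tumour is compared with itself. From each tumour, CD11b+ F4/80+ cells that lacked Ly6G, a gate for tumour-associated macrophages, were sorted and kept in cycloheximide, which holds ribosomes on mRNA. About 10 percent of the sorted cells gave the total mRNA library. The rest were separated on a sucrose gradient, and mRNA carrying at least 3 ribosomes gave the polysome library. The question is which mRNAs of these macrophages stood higher or lower among polysome-bound mRNA than in total mRNA of the same tumour. Host mice and grafted tumour cells share the sample up to the sort, so cells of either source that pass the gate enter both libraries.

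An mRNA in active translation carries several ribosomes at once, so its place in a sucrose gradient reports how many it carries. Its best known regulators act on initiation. The mTOR kinase controls mRNAs that start with a run of pyrimidines, called 5′ TOP mRNAs, which encode ribosomal proteins and elongation factors, and the cap-binding protein eIF4E, held by 4E-binding proteins and phosphorylated by the MNK kinases, sets how readily capped mRNAs are loaded. In macrophages, translation control is known to act on cytokines, on feedback inhibitors of NF-kB and on transcription factors such as C/EBP beta.

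The 3 total mRNA libraries held 29162182 to 48340879 counts and the 3 polysome libraries 16431776 to 20284077, with 11967 to 13201 genes detected. Macrophage markers, such as Csf1r, Adgre1 (F4/80) and the complement genes C1qa to C1qc, took 16.2, 5.09 and 11.4% of the counts in total mRNA of ER1, ER2 and ER3, and 5.75, 0.918 and 6.06% in their polysomes, with all 15 detected in each library. Apoe and Lyz2 held most of that sum in the total libraries, at 13.2, 4.02 and 8.20% of counts, and 3.39, 0.466 and 3.35% in polysomes. The other 13 markers took 3.03, 1.08 and 3.22% against 2.36, 0.452 and 2.71%. Among tumours, ER2 had the lowest shares, and in bulk RNA fewer cells of a type and less RNA per cell cannot be told apart. Ly6g had 0 to 2 counts. Fibroblast markers (15 genes, 12 to 15 detected per library) took 0.443% of the counts in total mRNA and 0.404% in polysomes of ER2, against 0.00661 to 0.0173% in the libraries of ER1 and ER3. Mammary epithelial markers (17 genes, 12 to 15 detected) took 0.507 and 0.170% in ER2, against 0.0124 to 0.0209% in the other tumours. Both ER2 libraries therefore stood apart. A second library stood apart in another way. Across 12868 genes, log2 values of the total mRNA library of ER3 correlated at 0.933 with the polysome library of the same tumour, while the pairs of ER1 and ER2 had 0.865 and 0.772. It also correlated at 0.926 with the polysome library of ER1, above its 0.916 and 0.831 with the total libraries of ER1 and ER2. Whether this library holds material from a polysome fraction was not tested. Each total value of ER3 is to be read with that in mind. Ribosomal protein mRNAs and Lars2 took 3.33 and 0.0792% of ER3 total counts, against 0.899 and 0.00304% in ER1, and 1.56 and 0.00658% in ER2. Total libraries of small T tumours of batch 1 had 2.74 to 4.69% and 0.433 to 0.902%. Those of the LR tumours of batch 2 had 1.07 to 3.95% and 0.00406 to 0.571%. By these shares the ER3 total was nearer to small T than ER1 and ER2 were. Which ER total libraries are the unusual ones was not tested. Polysome minus total log2 values had an SD across genes of 1.86 in ER1, 2.14 in ER2 and 1.35 in ER3, and went beyond 1 in either direction in 55.8, 61.8 and 38.8% of genes. Results are therefore given with and without ER2, and the values of ER3 are given for some of the genes they touch. A fold given alone can also rest mainly on ER1 and ER2. The polysome minus total value of Map3k7 was 3.28, 4.02 and 0.54 in ER1, ER2 and ER3, and that of Btg2 −2.68, −3.28 and −0.25.

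**Figure D1:**
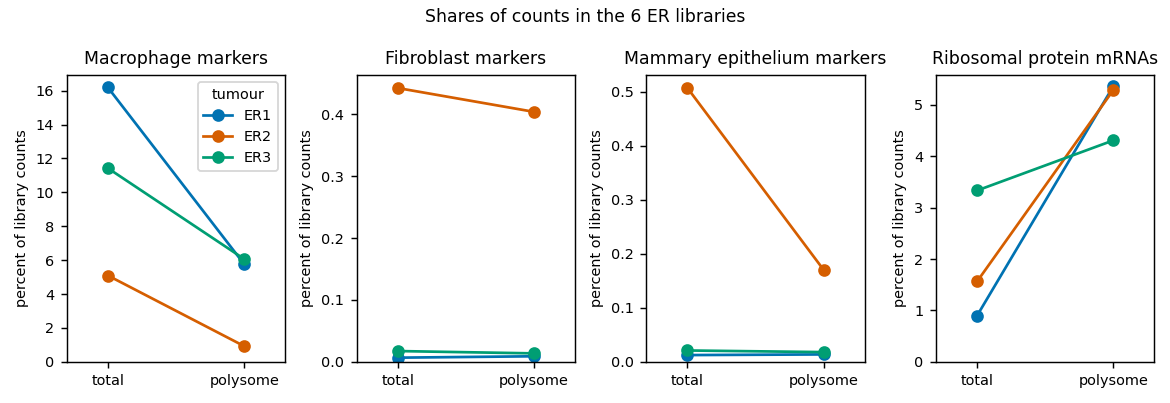
Percent of library counts (linear axes from 0) in macrophage markers, fibroblast markers, mammary epithelial markers and ribosomal protein mRNAs, for total and polysome libraries. Points are single libraries and lines join the 2 libraries of a tumour. ER2 is lowest for macrophage markers and highest for fibroblast and epithelial markers, and ribosomal protein mRNAs take a larger share in each polysome library than in its total library.

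Levels below are CPM, the counts of a gene relative to the scaled total of its library, listed in the order ER1, ER2 and ER3, and a fold is polysome against total mRNA on the log2 scale with its standard error. The test covered 11457 genes and called 1078 as higher in polysomes (9.41%) and 961 as lower (8.39%), at an adjusted p below 0.05 in a fit that pairs the libraries of a tumour. Polysome libraries lay wholly apart from total libraries in 826 of the higher and 804 of the lower genes, and in 14.6 and 16.4% of all genes tested, above and below. Without ER2, 274 of 11274 genes were higher (2.43%) and 233 lower (2.07%), and 268 and 225 of these were among the genes called with 3 tumours. The sign without ER2 was the same in 1077 of the 1078 higher and in each of the 961 lower genes. Leaving out ER1 gave 247 and 175 genes, and leaving out ER3 gave 2231 and 2200. Fits with 2 tumours have less to estimate the spread from, but the fit of ER1 and ER2 still made more calls than the fit with 3. With the pairing left out, 0 genes passed in edgeR (lowest adjusted p = 0.0751, with 2591 genes at an unadjusted p below 0.05). The p-values rest on the spread between these 3 tumours, moderated by a spread shared across all genes tested. An exact test of a single gene over 3 pairs cannot go below 0.25.

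Lars2, the mitochondrial leucyl-tRNA synthetase (GRCm38 chromosome 9, 123366927 to 123462666), had 38.3, 57.0 and 967 CPM in total mRNA and 101123, 49597 and 72044 CPM in polysomes. Each polysome library was far above each total library, and ER3 was the highest of the total libraries. Its fold of 9.28 ± 1.14 (adjusted p = 0.0084) was the largest among well-expressed genes, and it was 8.77 without ER2 (adjusted p = 0.0237). The gene alone took 6.44 to 10.3% of polysome counts, against 0.00304 to 0.0792% of total counts. Counts per gene do not show where along the gene these reads lie.

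Znrf2, a membrane-bound ubiquitin ligase (chromosome 6, 54816916 to 54893500), was the most even of the leading genes. It had 5.00, 4.05 and 5.24 CPM in total mRNA and 98.7, 96.1 and 133 CPM in polysomes, a fold of 4.51 ± 0.43 (adjusted p = 0.0084; 4.47 and 0.00415 without ER2). Pmepa1, a feedback inhibitor of TGF-beta signalling (chromosome 2, 173224458 to 173276533), was picked out after its values were seen, because it was as even at a higher level: 116, 99.7 and 110 CPM against 1917, 1279 and 2086 CPM (3.99 ± 0.44, adjusted p = 0.0084; 4.13 without ER2). In both genes the total libraries of ER2 and ER3 were as low as that of ER1. Osbp, an oxysterol-binding protein (chromosome 19, 11965941 to 11994112), had 0.260, 0.964 and 2.68 CPM against 103, 39.7 and 67.8 CPM (6.01 ± 0.82, adjusted p = 0.0084; 6.43 without ER2). Heca, the mouse relative of the fly headcase gene, had a fold of 4.55 ± 0.63, Rap2a, a small GTPase, 4.41 ± 0.80, and Ttc7b, a subunit of a complex that brings a lipid kinase to the plasma membrane, 4.35 ± 0.87. Tmem170b, a membrane protein, had 4.55 ± 0.98. These 4 were called without ER2 as well (adjusted p of 0.0106 to 0.0331). Lmtk2, a membrane-anchored kinase (6.20), Xylt1, which starts the glycosaminoglycan chains of proteoglycans (4.56), Bend3, a chromatin repressor (5.77), and Snx20, a sorting nexin (4.68), lost their calls without ER2 (adjusted p of 0.0574 to 0.384). Each was highest among the total libraries in ER3, and Snx20 had 1.35, 0.728 and 79.9 CPM in total mRNA against 117, 40.9 and 153 CPM in polysomes, so its groups overlap.

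At the other end stood Csf2ra, the alpha chain of the GM-CSF receptor (chromosome 19, 61223957 to 61228429), with 660, 170 and 331 CPM in total mRNA and 31.7, 1.69 and 65.7 CPM in polysomes (−4.40 ± 0.81, adjusted p = 0.0134; −3.37 and 0.0206 without ER2). The groups did not overlap, and the polysome library of ER2 was the lowest. Arl1, a Golgi GTPase, had 57.2, 64.8 and 38.9 CPM against 1.88, 6.46 and 3.26 CPM (−3.92 ± 0.52), and Psph, the last enzyme of serine synthesis, 32.6, 39.5 and 25.6 CPM against 3.04, 2.95 and 1.43 CPM (−3.77 ± 0.52). Both were even across tumours, with adjusted p = 0.0106 without ER2. Several of the other leading lower genes encode enzymes. B4gat1 (−4.33) and Alg3 (−4.26) build sugar chains, Pcca (−4.10) is a subunit of propionyl-CoA carboxylase, and Acat2 (−3.82) is a cytosolic thiolase. Ccnt1, the cyclin of the elongation factor P-TEFb (−4.06), and P2ry14, a receptor for UDP-glucose (−3.83), were lower too, and these 6 were called without ER2 (adjusted p of 0.0106 to 0.0333). Chil1, a chitinase-like protein (−4.15), and Vps33b, which acts in vesicle fusion (−3.70), were not (adjusted p = 0.0801 and 0.0535). Ifit3b, an interferon-induced gene (−3.87), has a close copy in Ifit3 and its single value is uncertain. Ubb, a polyubiquitin gene chosen after its values were seen, had 10178, 8712 and 3938 CPM in total mRNA and 678, 350 and 736 CPM in polysomes (−3.67 ± 0.55; −3.18 without ER2, adjusted p = 0.0193). Among the 120 genes named here that passed in the fit of 3 tumours, 34 also passed with each tumour left out in turn, 13 of them higher and 21 lower.

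**Figure D2:**
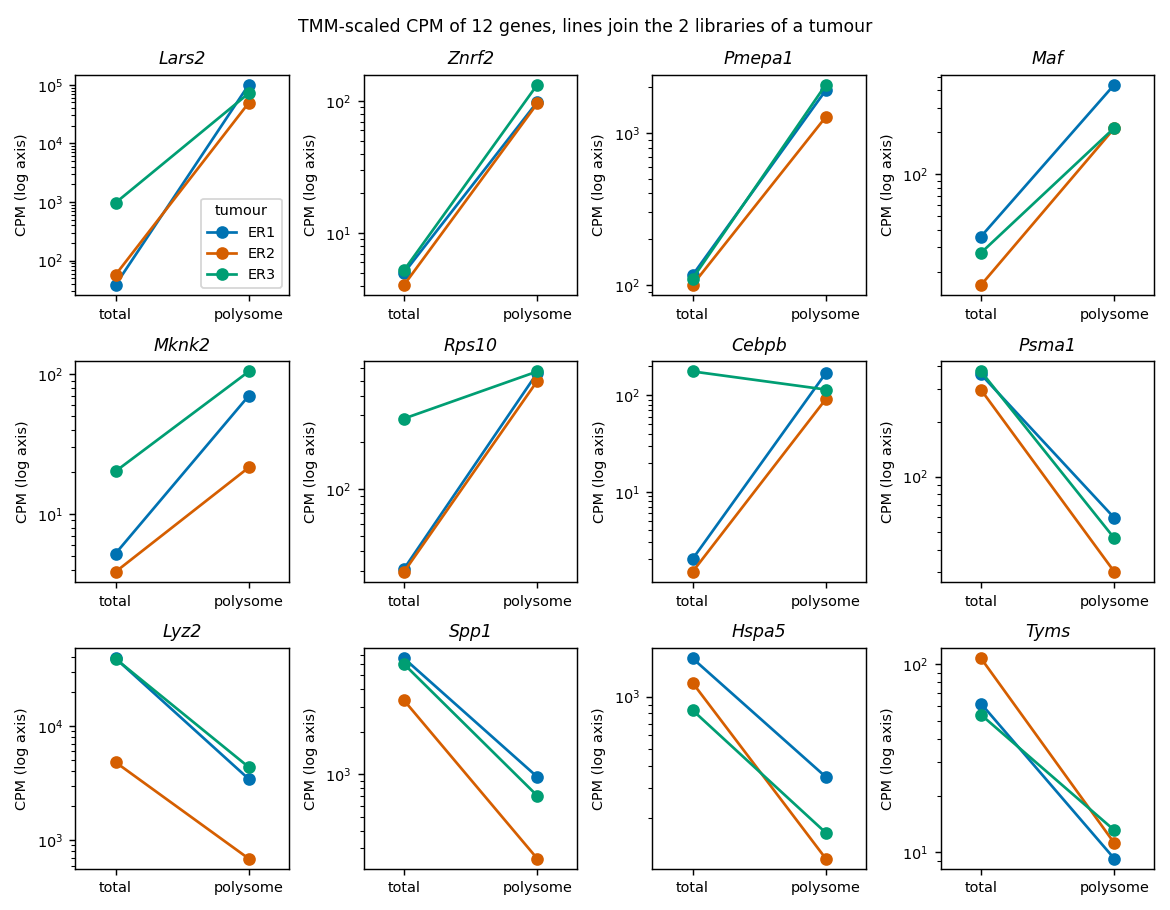
CPM (log axis, scaled separately for each gene) of 12 genes in total and polysome libraries, with lines joining the 2 libraries of a tumour. Lars2, Znrf2, Pmepa1, Maf, Mknk2 and Rps10 rise in each tumour and Psma1, Lyz2, Spp1, Hspa5 and Tyms fall in each, while Cebpb rises in ER1 and ER2 only, from a total level of 2.00 and 1.48 CPM against 177 CPM in ER3.

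Of 71 ribosomal protein mRNAs tested, 24 were higher in polysomes and 0 lower, with a positive fold in 64 and a median fold of 1.57, where the median over all genes was −0.04. The change was uneven between tumours. The median polysome minus total value was 2.43 in ER1, 2.04 in ER2 and 0.16 in ER3, and 69, 64 and 39 of the 71 were positive. Their share of total mRNA counts was 0.899, 1.56 and 3.33%, while their share of polysome counts was 5.37, 5.30 and 4.31%, so the tumours differed more in the total libraries than in the polysomes. None of the 71 passed without ER2 (median 1.29) or without ER1, and 57 passed without ER3. Rps10 of the small subunit had 30.8, 29.4 and 285 CPM in total mRNA and 562, 499 and 573 CPM in polysomes (3.18 ± 0.71, adjusted p = 0.0194; 2.58 and 0.0854 without ER2). Rplp2 of the ribosomal stalk had 88.5, 85.0 and 425 CPM against 1257, 820 and 917 CPM (2.77 ± 0.60). In both the groups did not overlap and the total library of ER3 was well above the other totals. Rpsa, also the laminin receptor, had 2.60 ± 0.56. Reads of ribosomal protein genes can also come from processed pseudogenes, so single values are uncertain.

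The starts of 6 called ribosomal protein genes are shown, each of them among the genes that matched the search described below. The run of pyrimidines at the first base is what defines the class. Each line gives 30 bases from RefSeq (GRCm38.p6), with 15 before the annotated first base, and the capitals mark the unbroken run of C and T that begins there.
Rps10, chr17:27635230-27635259, minus strand: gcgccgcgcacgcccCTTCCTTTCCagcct
Rps18, chr17:33955651-33955680, minus strand: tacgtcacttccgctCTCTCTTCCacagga
Rplp2, chr7:141447636-141447665, plus strand: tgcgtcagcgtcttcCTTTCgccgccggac
Rps21, chr2:180257364-180257393, plus strand: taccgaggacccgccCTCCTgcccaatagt
Rpl38, chr11:114668565-114668594, plus strand: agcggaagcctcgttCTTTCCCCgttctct
Rpl35a, chr16:33056467-33056496, plus strand: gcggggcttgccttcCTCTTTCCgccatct
The search asked for C at the annotated first base followed by 4 bases that are each C or T, on the strand of the gene. It matched 12 of the 52 ribosomal protein genes in the RefSeq table (23.1%) and 813 of all 27025 genes (3.01%). The annotated start can lie a few bases from the one used, so a missing match says only that these letters are not at that position. Median folds were 1.89 for the 12 ribosomal protein genes that matched and 1.53 for the 40 that did not. Outside the ribosomal proteins, 231 tested genes that matched had a median fold of 0.30, and 8045 that did not had −0.06.

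Other mRNAs of the translation machinery did not move as one. Of 18 elongation factor and other 5′ TOP mRNAs, 3 were higher and 0 lower (median 0.79; 0 called without ER2): Pabpc1, the cytoplasmic poly(A)-binding protein (1.89 ± 0.52), Eif3f (1.91 ± 0.52) and Rack1, a scaffold on the small subunit (1.54 ± 0.41). Initiation factors leaned lower, with 1 of 29 higher and 4 lower (median −0.53; 0 and 1 without ER2). Within eIF2, which brings the initiator tRNA, the mRNAs of its subunits went opposite ways: Eif2s1 had 110, 89.9 and 100 CPM against 32.5, 25.7 and 20.7 CPM (−1.94 ± 0.39, adjusted p = 0.0151; 0.0420 without ER2), and Eif2s3x 37.9, 56.2 and 35.8 CPM against 133, 264 and 132 CPM (1.97 ± 0.39, adjusted p = 0.0143; 0.0648 without ER2). The groups did not overlap in either. Among 33 aminoacyl-tRNA synthetases, 8 were lower and 1, Lars2, was higher (median −0.97). They included the cytosolic Dars (−2.13) and Eprs (−2.04) and the mitochondrial Hars2 (−2.39) and Yars2 (−2.50). Without ER2, Lars2 remained higher and 2 were lower.

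The mTOR pathway list, of kinases, their regulators and targets, had the second highest share of genes called as higher, 7 of 19. Another 3 were lower (median 1.03, with 4 and 1 called without ER2). These mRNAs are long, with a median transcript of 5531 bases. In the longest of 5 bins of all genes, the median fold was 0.99 and 22.3% were called as higher. Larp1, the protein that binds 5′ TOP mRNAs, had 9.92, 15.5 and 7.54 CPM against 59.2, 80.5 and 45.7 CPM (2.51 ± 0.42, adjusted p = 0.0114; 0.0225 without ER2). Its groups did not overlap, and the 3 tumours were alike, ER3 included. Pdpk1 (2.30), an activator of AKT, the mTOR complex subunits Rictor (2.49) and Deptor (1.99), Rps6ka3 (2.35) and Akt1 (1.34) were also higher. The lower genes were Rheb, the GTPase that activates mTOR (260, 277 and 104 CPM against 36.3, 31.1 and 32.0 CPM; −2.57 ± 0.45, adjusted p = 0.0124 and 0.0396 without ER2), and the S6 kinases Rps6kb1 (−1.69) and Rps6kb2 (−2.50).

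In the list of MNK kinases, eIF4E and its binding proteins, 2 of 14 were higher and 0 lower (1 and 0 without ER2). Mknk2 (chromosome 10, 80665327 to 80678112), a kinase of eIF4E, had 5.21, 3.85 and 20.2 CPM against 70.3, 21.5 and 105 CPM (2.86 ± 0.47, adjusted p = 0.0114; 3.04 and 0.0135 without ER2). The other kinase, Mknk1, had a fold of −0.42 ± 0.45 (adjusted p = 0.540), and Eif4e itself −0.86 ± 0.37 (adjusted p = 0.130). Eif4ebp2, a 4E-binding protein, had 3.28, 3.19 and 136 CPM against 74.6, 218 and 182 CPM (3.90 ± 1.09, adjusted p = 0.0374; 0.149 without ER2). Its total level in ER3 lay among the polysome values. Of 20 mRNAs known as sensitive to eIF4E, 2 were higher, the survival gene Mcl1 (1.98 ± 0.53) and the cell cycle kinase Cdk2 (1.71 ± 0.44), and 0 lower. Neither passed without ER2. The share called as higher was 10.0%, near the 9.41% of all genes.

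Translation of several stress and iron genes is known to be set by elements in their 5′ leader. Of 13 upstream ORF and integrated stress response genes, 2 were higher, the phosphatase subunit Ppp1r15b (1.87 ± 0.45) and the eIF2 kinase Eif2ak3 (2.78 ± 0.81), neither of them without ER2 (adjusted p = 0.104 and 0.0732), and 1 lower, the cystine transporter Slc7a11, with 24.9, 45.1 and 88.3 CPM against 6.75, 13.5 and 6.43 CPM (−2.44 ± 0.54, adjusted p = 0.0189; 0.0240 without ER2). Among 12 iron-responsive and antizyme mRNAs both ferritin chains were lower and 0 genes higher. Fth1 had 3413, 1767 and 9940 CPM against 1028, 585 and 1095 CPM (−2.16 ± 0.47, adjusted p = 0.0188; 0.0408 without ER2) and Ftl1 33759, 18384 and 20280 CPM against 8101, 2019 and 8328 CPM (−2.17 ± 0.49, adjusted p = 0.0194; 0.0982 without ER2). The groups did not overlap in these 3 genes.

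Proteasome subunits were lower in 12 of 35 and higher in 1 (median −0.60; 3 and 0 without ER2). Psma1 of the catalytic core (chromosome 7, 114264606 to 114276118) had 362, 298 and 376 CPM in total mRNA and 59.5, 30.2 and 46.1 CPM in polysomes (−2.98 ± 0.42, adjusted p = 0.00883; −2.83 and 0.0240 without ER2). The regulatory ATPases Psmc4 (−2.54) and Psmc2 (−1.92) were lower without ER2 as well. The 1 higher member, Psme2, belongs to the interferon-induced activator cap and had 59.9, 33.6 and 145 CPM against 307, 159 and 479 CPM (2.11 ± 0.41, adjusted p = 0.0139; 0.0684 without ER2).

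Endoplasmic reticulum chaperones and unfolded protein response genes had 7 of 20 members lower and 3 higher (median −0.75; 1 and 0 without ER2). Hspa5, the main chaperone, had 1660, 1202 and 836 CPM against 345, 117 and 165 CPM (−2.65 ± 0.45, adjusted p = 0.0114; −2.32 and 0.0467 without ER2). Pdia3, a disulfide isomerase (−2.07), and the transcription factor Xbp1 (−2.04) were lower but did not pass without ER2. The higher members were Hyou1, a chaperone (2.52), the sensor Atf6 (2.07) and Edem1, which acts in disposal of misfolded proteins (1.58).

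Subunits of the respiratory chain were taken as a complex I list and a list of complexes II to V. The shares called as lower were alike, 21.9 and 19.4%. Complex I subunits were lower in 7 of 32 and higher in 0 (median −0.57; 1 and 0 without ER2), with Ndufa12 at −2.02 and Ndufs1 at −1.77. In complexes II to V, 5 of 36 were higher and 7 lower (median 0.28; 0 and 3 without ER2). Sdha, the flavoprotein of complex II, had 404, 299 and 174 CPM against 85.7, 47.5 and 23.1 CPM (−2.60 ± 0.41, adjusted p = 0.0109; 0.0304 without ER2), and cytochrome c, Cycs, had −2.34 ± 0.41. Sdhc, a membrane anchor of complex II, was higher (2.00), as were Cox6a1 (1.77), Cox7c (1.39), Atp5e (1.74) and Atp5g2 (3.81), none of them without ER2.

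Genes of the lysosome and macrophage markers were mostly lower where called. Of 34 lysosomal hydrolase and proton pump genes, 10 were lower and 0 higher, with a negative fold in 31 (median −0.91; 2 and 0 without ER2). Asah1, acid ceramidase, had 742, 428 and 502 CPM against 106, 47.3 and 78.3 CPM (−2.89 ± 0.42, adjusted p = 0.00938; 0.0291 without ER2), and the protease gene Ctsc −2.32 ± 0.42 (0.0397 without ER2). Lyz2, lysozyme (chromosome 10, 117277331 to 117282321), had 39182, 4822 and 38839 CPM against 3427, 688 and 4356 CPM (−3.16 ± 0.43, adjusted p = 0.0084; −3.35 and 0.0121 without ER2). Both ER2 libraries were the lowest of their kind, and the groups did not overlap. Of 15 macrophage markers 5 were lower (Lyz2, Apoe, Cd68, C1qb and Fcgr1) and 1 was higher, Itgam, the CD11b gene of the sorting gate (1.34). Without ER2, 1 was lower and 0 higher. The lower share of macrophage markers in polysomes was mostly that of Apoe and Lyz2, and its part in the other results was not tested. Not every marker was lower: the CD11b gene Itgam had 68.1, 20.01 and 179 unscaled CPM in total mRNA and 310.0, 60.3 and 369 in polysomes, above total in each tumour. Lipid genes had 5 of 22 lower and 1 higher (0 and 0 without ER2), with Apoe at −2.17, the galectin gene Lgals3 at −2.15 and Plin2, which coats lipid droplets, at −1.80.

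The alternative activation and the pro-inflammatory list each had 2 genes higher and 1 lower of 23 tested (8.70 and 4.35%), against 9.41 and 8.39% of all genes. Maf, a transcription factor of resident-type macrophages (chromosome 8, 115682942 to 115707794), was the alternative activation gene that also passed without ER2: 35.8, 16.1 and 27.4 CPM against 440, 214 and 216 CPM (3.45 ± 0.43, adjusted p = 0.0084; 3.28 and 0.0144 without ER2). The secreted factor Retnla was higher (2.20 ± 0.65) and the folate receptor Folr2 lower (−1.58 ± 0.40), each with an adjusted p of 0.142 or 0.149 without ER2. Among 23 pro-inflammatory genes, Tnfaip3, the NF-kB inhibitor A20, was higher (0.729, 0.257 and 4.99 CPM against 7.64, 2.39 and 21.6 CPM; 2.88 ± 0.74, adjusted p = 0.0282, 0.0451 without ER2 and 0.106 without ER3, with overlapping groups), as was the receptor Cd40 (2.66 ± 0.54, adjusted p = 0.0158 and 0.0502 without ER2), and Il1a was lower (−2.18 ± 0.57, adjusted p = 0.0292 and 0.0465 without ER2). Of 25 TNF, NF-kB and Toll-like receptor signalling genes, the signal carriers Traf6 (1.87) and Map3k7 (2.69) were higher and 0 were lower (0 and 0 without ER2). Interferon response genes had 0 of 29 higher and 3 lower (Ifit3, Gbp2 and Gbp3), MHC class II and co-stimulation genes 1 of 15 higher (Cd40) and 2 lower (H2-Ab1 and H2-DMb2), and MHC class I presentation genes 0 of 12 in either direction, with 0 in these 3 lists without ER2. Hypoxia and glycolysis genes were split, 2 of 25 higher (the oxygen sensor Egln1 at 2.09 and the hexokinase Hk2 at 1.64) and 3 lower (Pkm at −2.03, Hk1 at −1.92 and Pfkl at −2.07), and Egln1 alone passed without ER2.

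Spp1, osteopontin, was lower, with 6586, 3325 and 5992 CPM in total mRNA and 957, 253 and 704 CPM in polysomes (−3.19 ± 0.44, adjusted p = 0.0084; −2.95 and 0.0199 without ER2). H2-Ab1, an MHC class II chain, was also lower (−1.69 ± 0.50, adjusted p = 0.0435; 0.259 without ER2). The mannose receptor gene Mrc1 (0.85, adjusted p = 0.213), arginase 1, Arg1 (1.22, 0.112), the cytokines Il1b (0.91, 0.208), Tnf (1.12, 0.0819) and Il10 (−3.15, 0.589), the checkpoint ligand Cd274 (1.65, 0.0852), the growth factor Vegfa (2.26, 0.0582) and the oxygen-regulated Hif1a (−1.44, 0.0779) did not pass, and Nos2 was too low to be tested. Without ER3, in a fit of ER1 and ER2 alone, Mrc1, Arg1, Il1b and Vegfa did (adjusted p of 0.00094 to 0.0048).

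Cebpb, which encodes C/EBP beta (chromosome 2, 167688915 to 167690418), shows how ER3 bears on the calls. It had 2.00, 1.48 and 177 CPM in total mRNA and 171, 91.7 and 115 CPM in polysomes, so the total library of ER3 was above each polysome library. Its fold of 4.62 ± 1.56 did not pass (adjusted p = 0.0665). It was 6.20 without ER3 (adjusted p = 1.8e-30) and 2.83 without ER2 (adjusted p = 0.531). A fit with a tumour left out holds 2 tumours and a spread moderated across genes. Its p-value, however small, does not stand for more tumours than that. B2m, the MHC class I light chain, chosen after its values were seen, had 169, 112 and 3116 CPM in total mRNA and 323, 307 and 378 CPM in polysomes. Its fold was −0.01 with 3 tumours (adjusted p = 0.996) and 1.21 without ER3 (adjusted p = 0.00666). Among 24 C/EBP and immediate early factors, 2 were higher (Fosl2 at 2.14 and Fosb at 1.74), 3 were lower (Ier2 at −1.99, Btg2 at −2.12 and Jun at −1.28) and 0 passed without ER2. The shares higher and lower were 8.33 and 12.5%, against 9.41 and 8.39% of all genes.

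**Figure D3:**
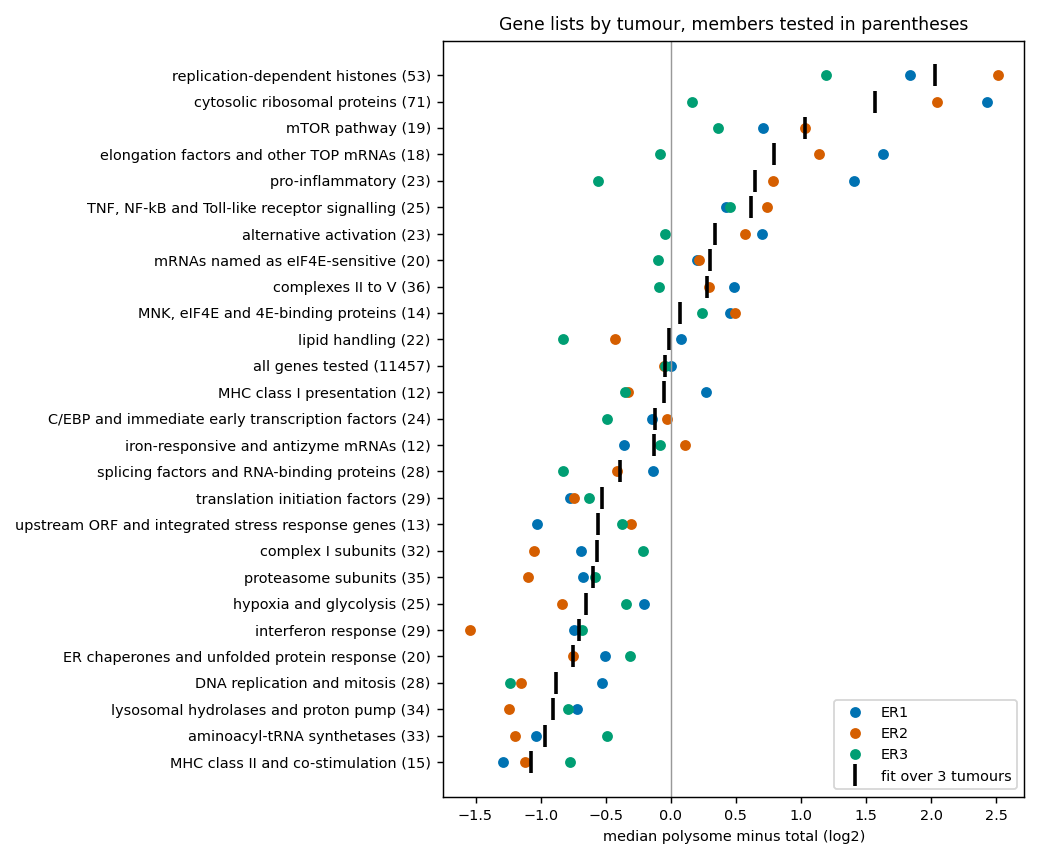
Median polysome minus total value (log2) of the members of each gene list, by tumour (coloured points) and in the fit over 3 tumours (black bars), with the number of members tested in parentheses. Cell type marker lists and lists with under 10 members tested are left out. Of the lists shown, histones and ribosomal proteins have the highest medians and MHC class II genes the lowest. For ribosomal proteins ER3 lies near 0 (0.16) while ER1 and ER2 lie above 2.

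Replication-dependent histone mRNAs, which end in a stem-loop in place of a poly(A) tail, were higher in 21 of 53 and lower in 0 (median 2.03; 3 and 0 without ER2). The tumour medians were 1.84, 2.51 and 1.19, so here ER3 went the same way. Hist1h2ai had 36.3, 50.9 and 194 CPM against 202, 324 and 682 CPM (2.32 ± 0.42, adjusted p = 0.0129; 0.0631 without ER2). ER3 was the highest of the total libraries and of the polysome libraries. Histone genes have near-identical copies and their single values are uncertain, Hist2h3b (5.25) included. The list took 0.0275 to 0.166% of total and 0.146 to 0.534% of polysome counts. How mRNAs without a poly(A) tail entered the SmartSeq2 libraries was not tested, so these folds may not stand for all histone mRNA. Other genes of the dividing cell went the opposite way, with 8 of 28 DNA replication and mitosis genes lower and 0 higher (median −0.88; 3 and 0 without ER2). Tyms, thymidylate synthase, had 61.7, 108 and 53.8 CPM against 9.21, 11.1 and 13.1 CPM (−2.69 ± 0.45, adjusted p = 0.0114; 0.0276 without ER2), and the mitotic cyclins Ccnb1 and Ccnb2 had −2.16 and −2.13. Splicing factors and RNA-binding proteins were mixed, 3 of 28 higher and 7 lower (0 and 0 without ER2), with the stress granule protein G3bp1 at −2.15 and the splicing factor Srsf1 at 1.47.

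Markers of other cell types went both ways within a type. Of 13 fibroblast markers tested, Col1a2 (2.21) and Pdgfra (1.97) were higher and Lum (−3.04) and Dcn (−1.75) lower. Dcn, decorin, had 19.4, 1508 and 81.4 CPM in total mRNA and 10.8, 340 and 17.4 CPM in polysomes, so the level of ER2 stood far above the others in both. None of the 4 passed without ER2 (adjusted p of 0.082 to 0.497). Of 13 epithelial markers, the keratin gene Krt18 was lower (−2.07, adjusted p = 0.0296; 0.135 without ER2), and of 9 endothelial and pericyte markers the smooth muscle actin gene Acta2 (−1.97; 0.0648 without ER2). Monocyte, neutrophil, dendritic cell, T and NK cell, B cell, and erythroid and platelet markers had 0 called. The part of fibroblasts or epithelial cells in the folds of other genes was not tested beyond leaving out ER2.

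Long mRNAs stood higher in polysomes. Lengths were known for 10438 of the 11457 genes (91.1%), from the GENCODE M21 annotation. Transcripts of genes called as higher had a median length of 4658 bases, those called as lower 2052 and the rest 2956, and median 3′ UTR lengths were 2070, 598.5 and 951. When the genes were divided by transcript length into 5 bins of like size, the median fold of the longest bin was 0.99, with 22.3% called as higher and 2.35% as lower, and that of the shortest was −0.50, with 4.79 and 13.2%. From bin 2 to bin 5 the median climbed in each tumour, to 1.26, 1.29 and 0.40 in the last, and it was 0.80 there without ER2. Across genes, the rank correlation of the fold with length was 0.355 for the transcript, 0.280 for the 3′ UTR, 0.198 for the coding part and 0.124 for the 5′ UTR, and −0.01 with GC content. Genes are not independent replicates, and all points share the same 6 libraries. Ribosomal protein and histone mRNAs do not follow this order, with median transcripts of 860 and 539 bases and median folds of 1.57 and 2.03. The mTOR pathway list (5531 bases, median fold 1.03) lay near the longest bin. Complex I (923 bases, −0.57) and proteasome subunits (1535 bases, −0.60) lay near the shortest. Whether these lists differ from other genes of like length was not tested. An mRNA with a longer coding part can carry more ribosomes, and a fraction pooled from 3 ribosomes upward does not separate this from other differences.

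**Figure D4:**
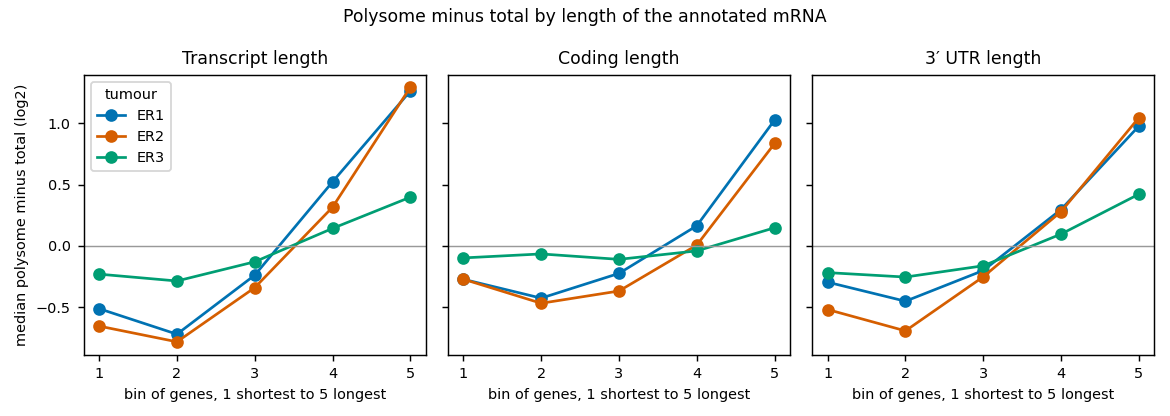
Median polysome minus total value (log2) in 5 bins of genes ordered by transcript, coding and 3′ UTR length, one line per tumour. The longest bin is the highest in each panel and tumour, and the slope is least steep in ER3.

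The ER tumours were set beside the LR tumours of the same batch (3 tumours of 1668 to 2245 mg) and the small T tumours of batch 1 (5 tumours of 638.5 to 841.8 mg), in 1 fit of all 26 libraries that tests the difference between polysome folds. Each set has its own total mRNA libraries. Against LR, 32 of 13395 genes had a higher fold in ER (0.239%) and 67 a lower one (0.500%), whatever the sign of the folds themselves. Against the small T tumours these were 1038 (7.75%) and 722 (5.39%). ER and LR differ in weight and title, and ER and T in batch and title, which cannot be told apart. The count against LR rests on single tumours: it was 0 without ER1 (1239 genes at an unadjusted p below 0.05), 20 without ER2 and 569 without ER3. Against small T it was 726, 922 and 2051.

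Among the lists examined, ribosomal proteins had the largest share of members whose fold differed from small T tumours. Of 71, 67 had a higher fold in ER than in small T tumours and 0 a lower one, while 0 differed between ER and LR. Their median fold in the common fit was 1.52 in ER, 1.64 in LR and −1.80 in small T tumours. By tumour the median was 0.12 to 2.39 in ER, 1.03 to 2.27 in LR and −2.78 to −0.69 in small T, and those of ER and T did not overlap. Their share of total mRNA counts was 0.899 to 3.33% in ER and 2.74 to 4.69% in small T, and their share of polysome counts 4.31 to 5.37% and 0.690 to 1.59%. Rpl39, a small protein of the large subunit, had a fold of 3.46 in ER and −3.61 in small T (difference 7.07 ± 1.45, adjusted p = 0.00800). Elongation factor and other 5′ TOP mRNAs went the same way, with 15 of 18 higher than in small T and 0 lower. Histones did not: 10 of 53 had a lower fold in ER and 0 a higher one, with medians of 1.99 in ER, 2.61 in LR and 3.14 in small T.

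**Figure D5:**
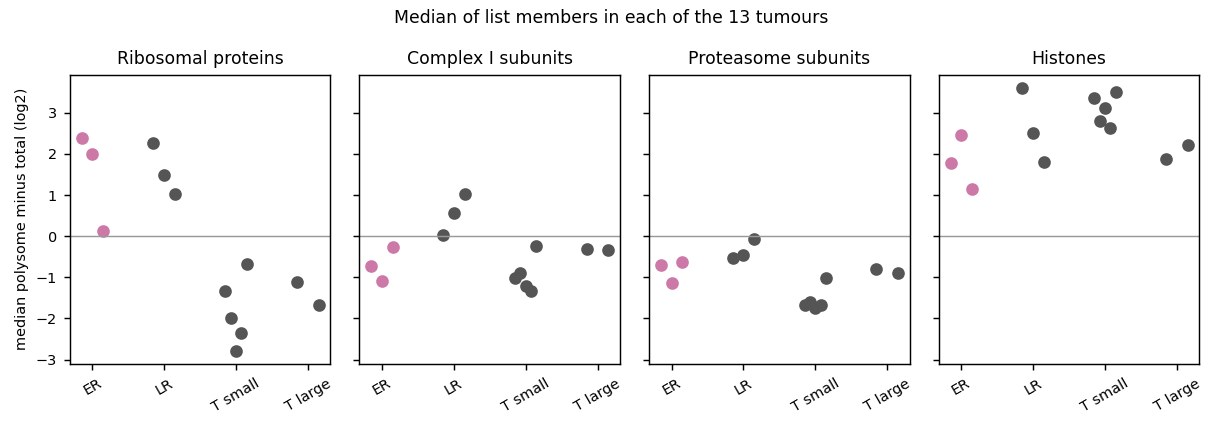
Median polysome minus total value (log2) of ribosomal protein, complex I, proteasome and histone mRNAs in each of the 13 tumours, by set, with ER in pink. Ribosomal proteins lie above 0 in ER and LR and below 0 in the T sets, and histones lie above 0 in all 13 tumours.

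Complex I subunits had a median of −0.61 in ER and 0.71 in LR, but 1 of 32 genes passed as lower in ER and 0 as higher. Proteasome subunits had medians of −0.64, −0.46 and −1.64 in ER, LR and small T, with 9 of 35 genes called as having a higher fold in ER than in small T. Tgfb1, the growth factor TGF-beta 1, had the largest difference below 0 against both sets, with folds of −1.65 in ER, 2.83 in LR and 4.18 in small T (adjusted p = 0.0385 and 0.000238). Its polysome minus total value was −3.18 to −0.09 in ER tumours, 1.49 to 5.83 in LR and 3.09 to 4.83 in small T. These ranges did not overlap, which choosing the largest difference favours. Tnfaip3 went the other way against LR, with folds of 2.83 and −1.56 (difference 4.39 ± 0.81, adjusted p = 0.00958). Pink1, the kinase that marks damaged mitochondria, had −0.55 in ER and 3.65 in LR (adjusted p = 0.00799). Uba6, a ubiquitin-activating enzyme, and Manea, which trims sugar chains in the Golgi, had higher folds in ER than in either set. Of the 16 genes that the naming rule took against LR, 12 lost their call without ER2 and 16 without ER1. Of the panel, Arg1 (difference 3.12 ± 0.71, adjusted p = 0.00427) and Eif4e (1.76 ± 0.51, adjusted p = 0.0190) had a higher fold in ER than in small T, and Spp1 a lower one (−2.70 ± 0.49, adjusted p = 0.000361). Against LR, 0 of these 3 passed, and Mrc1 had the lowest adjusted p (difference 2.04 ± 0.56, adjusted p = 0.0677). The fold of Lars2 was 9.23 in ER, 6.01 in LR and 5.21 in small T, differences that did not pass (adjusted p = 0.474 and 0.116).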

How the data were processed

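Per the file headers, the authors deposited for each library whole-number read counts per gene (19549 rows, 830 of them with joined names of overlapping genes) and a column of log2 values. The counts were used for every test, and the deposited log2 column, present for 10472 genes per library, was only checked against them. The submitters' processing notes name HISAT, HISAT2, limma and mm10. How reads were assigned to genes, and with which annotation and strand setting, is not given in the sources used here. SmartSeq2 does not mark strand, so a gene and an antisense partner cannot be told apart.

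In the 6 ER libraries, edgeR 4.0.16 (R 4.3.3) was run on genes passing filterByExpr, with TMM scaling, a robust quasi-likelihood fit, its F-test, a term for the tumour as a block, 2 residual degrees of freedom and Benjamini-Hochberg adjustment at 0.05. The pairing comes from the labels, by which 1 sorted population gave the 2 libraries of a tumour. Deviations from group means correlated at 0.550, 0.630 and 0.316 within ER1, ER2 and ER3, and at −0.573 to 0.345 between tumours, so the value of ER3 is not above all of those between tumours. Differences between sets were contrasts in 1 fit of 26 libraries with the tumour as a block. Per-tumour differences were taken on log2 CPM, adding a prior count of 1. The scripts were tested on simulated data.

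Alternatives were RLE and upper-quartile scaling, removing the filter, a stricter one at 10 CPM on average, DESeq2 1.42.0, voom of limma 3.58.1, no block, 12 or 26 libraries and each tumour left out. Named genes were up to 12 per direction with the largest fold among called genes that averaged 10 CPM or more and kept 1 sign in 3 tumours, leaving out predicted genes, pseudogenes and joined rows, then the 4 lowest p-values of each list, and a fixed panel, and for set differences 8 per direction. The tumours and the 37 lists (10 of cell type markers) were chosen with earlier results of these data known. The list of nuclear-retained non-coding RNAs had 1 member in the tables and 0 tested. Lengths and coordinates are from GENCODE M21 (GRCm38, the same assembly as mm10). Results for some named genes are not reported here.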

Additional observations from a re-analysis of the deposited data

Results flagged for a closer look

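Each entry here was picked out because a test of the difference between sets passed. The polysome fold differed between ER and LR tumours in 99 genes and between ER and small T tumours in 1760 (edgeR quasi-likelihood contrasts, adjusted p below 0.05). Against LR, the named genes with a higher fold in ER were Tnfaip3 (difference 4.39), Manea (4.30), Arhgap24 (4.16), St8sia4 (4.11), Edem3 (4.10), Uba6 (3.82) and Hltf (3.64). Those with a lower fold were Tgfb1 (−4.48), Pink1 (−4.20), Alg3 (−4.06), Rras (−3.99), Copz2 (−3.89), Marcksl1 (−3.77), Rab22a (−3.76) and Ino80b (−3.67). In the fold against small T, Rpl39 (7.07), Rpl9 (5.71), Uba6 (5.69), Rpl3 (5.51), Manea (5.50), Rpl22l1 (5.45), Rps23 (5.28) and Arrdc3 (5.26) were higher in ER. Tgfb1 (−5.82), BC037034 (−5.35), Kcna3 (−5.06), Leng8 (−5.00), Sf3a2 (−4.84), Mlxipl (−4.75), Klhl17 (−4.75) and Zfp36l1 (−4.71) were lower. In each of these genes the per-tumour values of the sets compared did not overlap. The genes were chosen for the largest called differences, so this adds no support, and the share over all genes is not given. Of the 16 genes that the naming rule took against LR, 16 lost their call without ER1, 12 without ER2 and 14 with no replicate block. Of the 16 taken against small T, 1 lost its call without ER1, 2 without ER2 and 1 with no replicate block. The batch and the title cannot be told apart in the comparison with T, nor the weight and the title in that with LR.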

How the results depend on the processing

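Scaling by RLE or upper quartiles, both filters and the fits of 12 or 26 libraries kept the counts of higher and lower genes within 1.5 times of 1078 and 961. DESeq2 called 1933 and 1775, and voom 1659 higher and 1393 lower. With no replicate block, 0 genes were higher and 0 lower by edgeR (adjusted p of 0.0751 or more, while 2591 genes had an unadjusted p below 0.05). Leaving out 1 tumour gave 247 to 2231 higher and 175 to 2200 lower genes. Of the 120 named genes called, 44 were called without ER1, 48 without ER2 and 119 without ER3, each with the same sign. The difference from LR was called in 285 genes with no filter, 307 with voom, 6 with no replicate block, and 0 to 569 with a tumour of ER left out. The difference from small T ranged from 726 to 2051 with a tumour left out, and was within 1.5 times of 1760 under the other settings. Of the single genes, B2m reversed, from −0.01 to 1.21 without ER3 (range with a tumour left out −1.07 to 1.21). The cause of these shifts was not tested. Each fit with 1 tumour fewer has fewer samples to estimate the spread from, and calls fell without ER1 or ER2 and rose without ER3. Within the ER set, 3 libraries stood apart from the rest (both of ER2 and the total library of ER3). With 3 tumours and such libraries, a gene that did not pass is not shown to be equal in polysomes and total mRNA. Genes under about 10 CPM have the least counts behind them.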
